A study of Homo sapiens with 6 samples.

Results

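Intermediate filament genes were followed in a stepwise model of fibroblast transformation: the simple epithelial keratins KRT7, KRT8, KRT18 and KRT19, the hair keratin KRT34, vimentin (VIM) and nestin (NES). These 7 genes were picked by name, with earlier results of these data known, out of 18417 genes on the array. Each was read by its probe set with a single gene symbol and the highest mean. All 7 had a mean log2 signal above the gene median of 7.26. Shares of all genes printed beside counts of the 7 therefore describe the counts and do not test them. BJ, primary fibroblasts of human foreskin, are the starting line. BJEL are BJ cells that express hTERT, a telomerase subunit, and both SV40 early antigens (large T, small t), under G-418 and hygromycin. BJELM were made from BJEL with a retrovirus carrying MYC-ER, a fusion of MYC with an estrogen receptor domain, and were grown in G-418, hygromycin, puromycin and 4-hydroxytamoxyfen without interruption. The selection drugs and the receptor ligand cannot be told apart from the introduced genes, and the sources used here do not say whether the lines are clones. Each line was measured on 2 arrays, described as biological replicates.

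Keratin filaments are built from pairs of a type I and a type II keratin. KRT8 and KRT7 are type II, and KRT18 and KRT19 are the type I partners that simple epithelia make with them. Vimentin is the type III filament protein of mesenchymal cells, including fibroblasts, and nestin is a type IV protein that is best known from neural progenitors and that assembles together with vimentin. KRT34 is a type I keratin of the hair shaft.

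The promoters of KRT34 and NES, which of the 7 genes fell most in the arrays labelled BJELM and in BJEL, are shown beside that of VIM, which varied least over the 6 arrays. Each sequence is the 250 bases before the start of the gene as listed by RefSeq, and capitals mark a TATA box (TATAAA) or a GC box (GGGCGG), searched on both strands.

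KRT34 (GRCh38.p14, chr17:41382307-41382556, minus strand): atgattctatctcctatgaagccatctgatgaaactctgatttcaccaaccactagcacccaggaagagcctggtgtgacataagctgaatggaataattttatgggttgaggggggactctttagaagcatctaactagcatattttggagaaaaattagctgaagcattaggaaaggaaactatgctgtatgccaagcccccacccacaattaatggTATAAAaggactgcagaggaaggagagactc

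NES (GRCh38.p14, chr1:156677408-156677657, minus strand): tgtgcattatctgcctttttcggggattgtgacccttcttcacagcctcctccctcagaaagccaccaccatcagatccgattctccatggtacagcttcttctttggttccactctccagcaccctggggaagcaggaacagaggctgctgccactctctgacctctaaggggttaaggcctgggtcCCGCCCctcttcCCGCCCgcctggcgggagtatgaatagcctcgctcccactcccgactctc

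VIM (GRCh38.p14, chr10:17227991-17228240, plus strand): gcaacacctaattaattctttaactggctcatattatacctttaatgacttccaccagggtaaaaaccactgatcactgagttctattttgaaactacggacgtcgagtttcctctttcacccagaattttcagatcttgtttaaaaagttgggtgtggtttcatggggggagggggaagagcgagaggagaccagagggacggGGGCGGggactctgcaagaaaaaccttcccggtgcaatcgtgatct

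The KRT34 promoter held 1 TATA box, which begins 31 bases before the start, a motif found in 10.7% of 35116 promoters of the same length. The NES promoter held 2 GC boxes in the reverse orientation and the VIM promoter held 1, a motif found in 42.6% of all promoters. The MYC E-box (CACGTG, in 6.34% of promoters), the AP-1 site (TGACTCA, in 4.2%) and the E2-box read by ZEB and SNAI factors (CACCTG, in 17.5%) had no match in any of the 3 windows. These matches describe letters and not binding. RefSeq promoters were listed for 4 of the 7 genes, and KRT7, KRT18 and KRT19 had no entry.

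The arrays were similar in distribution, with medians between 6.37 and 6.46 over all probe sets. TERT was 2.99 to 3.02 higher (log2) in both derived lines than in BJ. MYC stood at 9.47 and 9.61 in BJ, 10.22 and 10.12 in BJEL and 9.57 and 8.90 on the arrays labelled BJELM, so the MYC signal goes against the label BJELM. Whether this probe set reads the MYC-ER transcript was not given in the sources used here, so the signal alone does not settle the label. The study reports a Western blot with MYC-ER overexpressed at the MYC step and an RT-qPCR check of MYC, neither re-examined here. Its own list of transcription factors also has MYC lower in BJELM than in BJ. Directions that use BJELM are those of the arrays labelled so. All 15 fibroblast markers were at or above the gene median in BJ, against 10 of 15 in each derived line. Of 16 epithelial markers 3 were at or above the gene median in BJ, 4 in BJEL and 3 in BJELM. ITGA6, an integrin chain, was the highest of them in each line, at 9.51 to 10.79, while CDH1 and EPCAM, the adhesion proteins that define epithelia, stayed between 5.35 and 5.84.

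The first comparison, BJEL against BJ, covers the step with hTERT and SV40 antigens. NES and KRT7 fell, by 4.86-fold and 2.92-fold, and the other 5 genes were lower without meeting both criteria, which were an adjusted p under 0.05 from limma and a change of at least 2-fold. KRT19, KRT34 and KRT18 differed by -1.31, -0.99 and -0.97 on the log2 scale, KRT8 by -0.54 and VIM by -0.12. The 2 falls among 7 genes stand beside 2.29% of all genes that fell in this comparison. In all 7 genes both BJEL arrays lay under both BJ arrays, as was so for 32% of all genes. The median difference of the 7 genes was -0.99, beside -0.017 over all genes.

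The next comparison, the arrays labelled BJELM against BJEL, covers the step with MYC-ER. KRT34 was the gene that fell, by 4.34-fold, 1 of 7 beside 1.76% of all genes (2.68% rose or fell). The number of falls among all genes, 324, went down when some single arrays were left out and up when others were. The others moved little, with differences from -0.35 for KRT19 to 0.40 for KRT8, and none of those 6 passed the test without a replicate block. With the replicate number as a block, KRT8 (adjusted p = 0.0121) and KRT19 (adjusted p = 0.03) had an adjusted p under 0.05 as well, under the 2-fold minimum, so that 3 of 7 genes did, beside 24.3% of all genes. KRT34 was lower on both arrays and KRT8 and NES higher on both, without overlap, beside 24% of all genes that were lower and 52.8% that were lower or higher. KRT8 barely separated, with 7.6509 on the lower BJELM array and 7.6495 on the higher BJEL array. Over both steps, in the arrays labelled BJELM against BJ, KRT34, NES, KRT19 and KRT7 fell, which is 4 of 7 beside 4.7% of all genes. A fit of only the genes at or above the gene median, where all 7 lie, called 1304 genes there, of which 687 fell. The fit of all genes called 1619, of which 866 fell. The median splits the genes evenly, so the share that fell among such genes was higher than 4.7%. In BJEL against BJ that fit had 288 falls, beside 421 over all genes. From BJEL to BJELM it had 273, beside 324, so those shares were higher as well. In 6 of the 7 genes both arrays labelled BJELM lay under both BJ arrays, beside 28.8% of all genes, and KRT8 was the exception. The comparisons share arrays, so their values are not independent of each other.

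**Figure D1:**
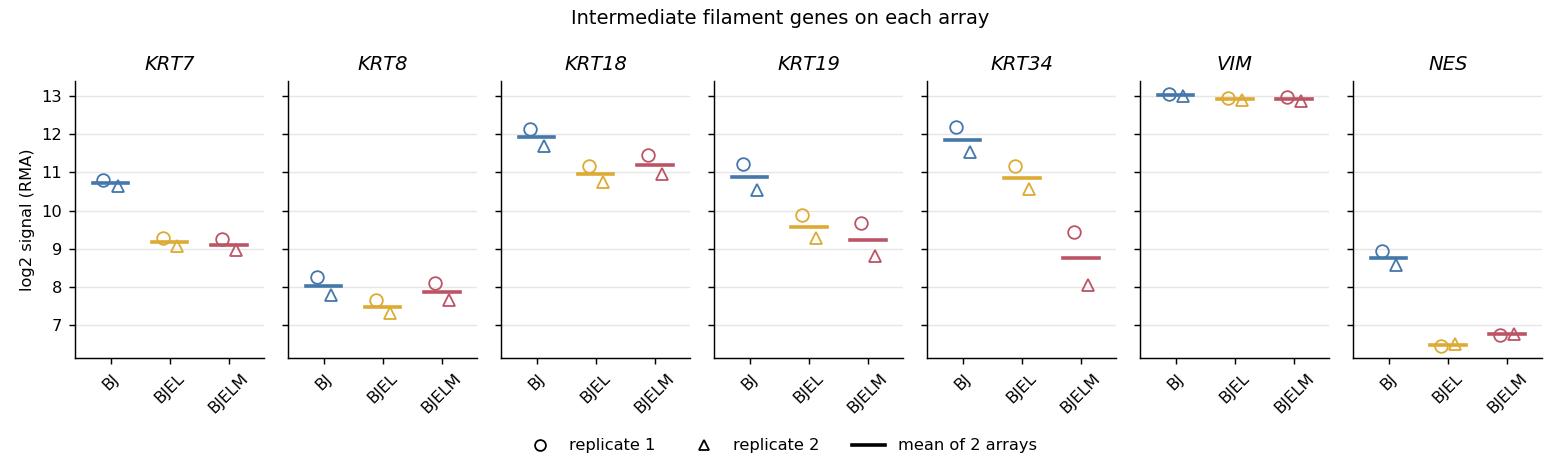
Log2 signal (vertical axis) of the 7 genes on each array of BJ, BJEL and BJELM (horizontal axis), with circles for replicate 1, triangles for replicate 2 and bars for the mean of the 2 arrays. VIM lies between 12.87 and 13.07 throughout, and KRT34 goes from 11.86 in BJ to 8.75 in BJELM. KRT7 drops from BJ to means of 9.18 in BJEL and 9.10 in BJELM, and NES to 6.47 and 6.75.

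Among the type II keratins, KRT7 (Entrez 3855, probe set 7955613) had log2 signals of 10.79 and 10.65 in BJ, 9.27 and 9.08 in BJEL, and 9.25 and 8.95 in BJELM. The BJ arrays stood above all others, and the derived lines overlapped. The change was -1.54 ± 0.13 in BJEL (SE, adjusted p = 0.00148) and -1.62 ± 0.13 in the arrays labelled BJELM (adjusted p = 0.000629), each against BJ with n = 2 arrays per line. From BJEL to BJELM the difference was -0.08 with a 95% interval from -0.40 to 0.25. The MYC-ER step differed from the hTERT and SV40 step by 1.47 ± 0.23 (adjusted p = 0.0181), a contrast chosen after the values were seen, for which 8.25% of all genes have an adjusted p under 0.05.

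KRT8 (Entrez 3856, probe set 7963567), the partner of KRT18, had signals of 8.25 and 7.77 in BJ, 7.65 and 7.30 in BJEL, and 8.10 and 7.65 in BJELM. The BJEL arrays were the lowest, though the higher of them barely so, and those of BJ and BJELM overlapped. The difference of BJEL from BJ was -0.54 ± 0.22 (adjusted p = 0.171), and that of BJELM from BJ was -0.14 with an interval from -0.69 to 0.41.

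Among the type I keratins, KRT18 (Entrez 3875, probe set 7955637) had signals of 12.15 and 11.70 in BJ, 11.16 and 10.74 in BJEL, and 11.46 and 10.95 in BJELM. Both derived lines lay under BJ and overlapped with each other. In BJEL the difference from BJ was -0.97 ± 0.24 (adjusted p = 0.04), just under the 2-fold minimum, and in BJELM it was -0.72 ± 0.24 (adjusted p = 0.0741). Another probe set that lists KRT18 read 11.69 and 11.02 in BJ, 10.60 and 9.95 in BJEL, and 10.98 and 10.05 in BJELM. It has the same order of the lines. RefSeq lists 68 KRT18 and 52 KRT8 pseudogenes, so how far either gene's probes also read such copies is uncertain here.

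The difference between KRT8 and KRT18 varied with the line. Within each array, KRT8 minus KRT18 was 0.40 and 0.47 above the BJ mean of that difference on the BJEL arrays, and 0.55 and 0.61 above it on the BJELM arrays. The BJ arrays deviated from their mean by 0.013 to either side. KRT8 was thus nearer to its BJ level than KRT18 on every array of the derived lines. KRT7 minus KRT18 went the other way, to between -1.01 and -0.46 on the derived arrays, with BJ arrays 0.15 to either side. KRT7 minus KRT19 ran from -0.45 to 0.31, with BJ arrays 0.27 to either side. The pairs were chosen after values were seen and were not tested.

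KRT19 (Entrez 3880, probe set 8015349), a type I keratin without a tail domain, had signals of 11.23 and 10.54 in BJ, 9.89 and 9.27 in BJEL, and 9.66 and 8.80 in BJELM. The 2 arrays of a line lay far apart, yet every BJ array was above every array of the derived lines. The difference from BJ was -1.31 ± 0.37 in BJEL (adjusted p = 0.0611), and KRT19 fell by 1.65 ± 0.37 in the arrays labelled BJELM (adjusted p = 0.0191). The latter call did not hold when the first BJ array (-1.31, adjusted p = 0.102) or the second BJELM array (-1.22, adjusted p = 0.0677) was left out. With the replicate number as a block, KRT19 also passed in BJEL (-1.31 ± 0.089, adjusted p = 0.000122), which makes 3 of the 7 genes beside 2.33% of all genes that fell in that fit.

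KRT34 (Entrez 3885, probe set 8015268) had the largest change among the 7 genes. Its signals were 12.19 and 11.52 in BJ, 11.17 and 10.56 in BJEL, and 9.45 and 8.05 in BJELM. The lines followed each other downwards with no overlap between them, and the BJELM arrays were far apart. Against BJ the arrays labelled BJELM were 8.62-fold lower (-3.11 ± 0.48, adjusted p = 0.00505). This change was -3.81 without the first BJELM array and -2.41 without the second, and it passed whichever array was left out. From BJEL to BJELM the change was -2.12 ± 0.48 (adjusted p = 0.0442). It no longer passed when either BJ array was left out (adjusted p = 0.0667 for each). Nor did it pass after removal of the BJEL arrays numbered 1 (-1.81, adjusted p = 0.211) and 2 (-2.42, adjusted p = 0.101) in turn, or of the second BJELM array (-1.42, adjusted p = 0.0916). With the replicate block the same change had an adjusted p of 0.000505, and 2.01% of all genes fell in that fit. The difference of BJEL from BJ was -0.99 ± 0.48 (adjusted p = 0.229), and that between the steps was -1.13 ± 0.83 (adjusted p = 0.488).

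Vimentin (Entrez 7431, probe set 7926368) had signals of 13.07 and 13.01 in BJ, 12.95 and 12.89 in BJEL, and 12.98 and 12.87 in BJELM. The whole spread over the 6 arrays is smaller than the gap between the KRT8 arrays of a single line. The difference from BJ was -0.12 in BJEL (95% interval -0.33 to 0.10, adjusted p = 0.44) and -0.11 in BJELM (-0.32 to 0.10, adjusted p = 0.447). The intervals therefore leave room for changes of up to about 0.33 on the log2 scale.

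Nestin (Entrez 10763, probe set 7921088) had signals of 8.94 and 8.57 in BJ, 6.46 and 6.49 in BJEL, and 6.75 and 6.75 in BJELM. Both derived lines were far under BJ and also under the gene median, and the BJELM arrays lay above those of BJEL. NES fell by 2.28 ± 0.13 in BJEL (adjusted p = 0.000593), and it dropped by 2.01 ± 0.13 in the arrays labelled BJELM (adjusted p = 0.000347). From BJEL to BJELM the difference was 0.28 ± 0.13 (adjusted p = 0.264). The steps differed by 2.56 ± 0.23 (adjusted p = 0.00443). In bulk RNA, fewer cells with a message and less message per cell cannot be told apart.

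**Figure D2:**
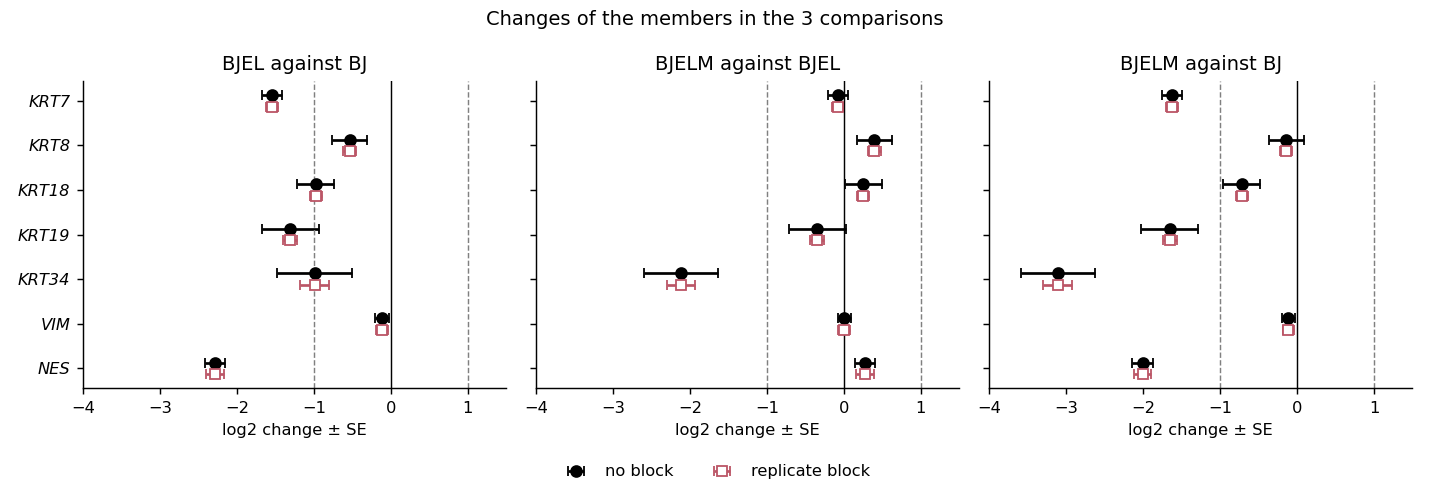
Log2 change ± SE (horizontal axis) of the 7 genes (vertical axis) in the 3 comparisons, fitted without a replicate block (black circles) and with it (red squares), where dashed lines mark a 2-fold change. NES and KRT7 lie beyond 2-fold in BJEL, KRT34 at -2.12 from BJEL to BJELM, and the block narrows the errors of KRT8, KRT18, KRT19 and KRT34 while leaving the changes in place.

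The keratins differed between the arrays of a line in the same way in all 3 lines. In KRT7, KRT8, KRT18, KRT19, KRT34 and VIM the array numbered replicate 1 was above replicate 2 in BJ, BJEL and BJELM, an order that 29.2% of all genes shared. For KRT19 the gap was 0.69 in BJ, 0.62 in BJEL and 0.86 in BJELM, and for KRT34 it was 0.66, 0.60 and 1.40. These gaps exceed the 95th percentile of the size of the gap over all genes, which was 0.43, 0.43 and 0.52. NES did not share the order, with 0.37 in BJ, -0.036 in BJEL and -0.0045 in BJELM. What the replicate numbers stand for was not given in the sources used here.

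For KRT19, KRT18, KRT34, KRT8 and KRT7 the difference of BJEL from BJ was alike in both replicate numbers. It was less alike for NES, whose gap between replicates was 0.37 in BJ and -0.036 in BJEL. The differences of KRT34 that use BJELM were also less alike, since its gap was 0.60 in BJEL and 1.40 in BJELM. BJEL minus BJ was -1.34 and -1.27 for KRT19 in the arrays numbered 1 and 2, -0.99 and -0.96 for KRT18, and -1.02 and -0.96 for KRT34. For KRT8 the values were -0.60 and -0.47, and for KRT7 they were -1.52 and -1.57. In a fit with the number as a block, 6 of the 7 genes had an adjusted p under 0.05 in BJEL, beside 31.5% of all genes, and VIM was the exception (adjusted p = 0.306). KRT8 (adjusted p = 0.00264), KRT18 (adjusted p = 0.000203) and KRT34 (adjusted p = 0.0068) stayed under the 2-fold minimum there. In the arrays labelled BJELM against BJ, 5 of the 7 had an adjusted p under 0.05 with the block, beside 39.6% of all genes, and KRT18 was the one added (adjusted p = 0.000349), under 2-fold. The difference between the steps passed with the block also for KRT8 (0.93, adjusted p = 0.00467), KRT18 (1.23, adjusted p = 0.00149) and KRT19 (0.96, adjusted p = 0.00635), 5 of 7 genes beside 20.4% of all genes.

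**Figure D3:**
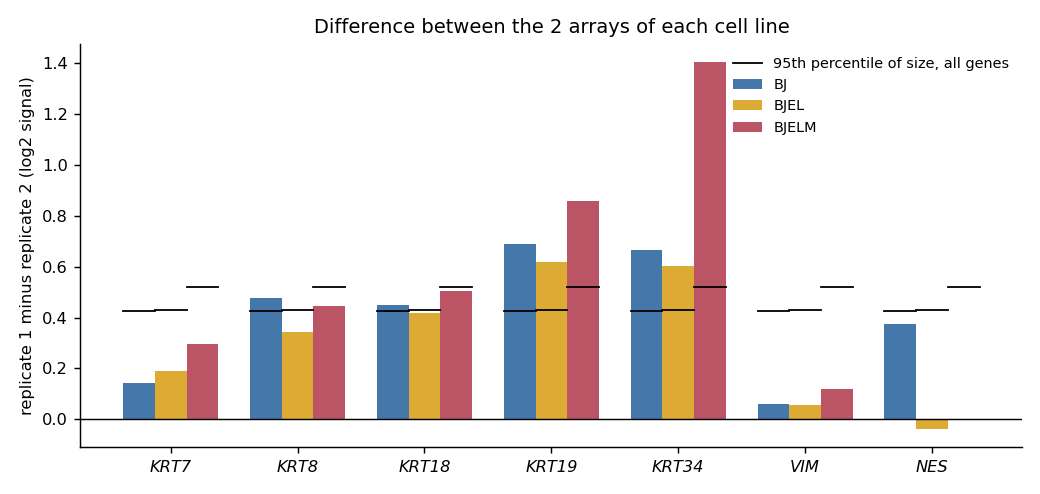
Replicate 1 minus replicate 2 in log2 signal (vertical axis) for the 7 genes (horizontal axis) in each cell line, with black lines at the 95th percentile of the size of this difference over all genes. KRT19 and KRT34 exceed the line in all 3 lines, KRT8 and KRT18 lie near it, and VIM and KRT7 lie well below it.

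Other filament genes were mostly quiet. Of 69 listed intermediate filament genes 62 were measured, and 49 of these had a mean signal under the gene median. In BJEL 1 of the 62 rose and 3 fell (6.45% called, beside 5.18% of all genes), and in the arrays labelled BJELM 1 rose and 6 fell against BJ (11.3%, beside 8.79%). None of 17 stratified epithelial keratins was called in any comparison by limma or by the methods' test, and 0 of them had an unadjusted p under 0.05. All 17 had a mean signal under the gene median, so the lack of calls does not show stable expression. KRT14 and KRT16, the brightest of them on average, differed from BJ in BJEL with an adjusted p of 0.457 and 0.533. Without the 7 genes, 1 of 55 rose and 1 fell in BJEL (3.64% called, beside 5.18%). In the arrays labelled BJELM against BJ, 1 rose and 2 fell (5.45%, beside 8.79%). These shares were no higher than over all genes, but 49 of the 55 had a mean signal under the gene median. No comparison at matched signal was made.

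The type IV genes held the largest change of the family. INA, alpha-internexin, a neuronal filament protein, had signals of 9.70 and 9.52 in BJ, 6.76 and 6.81 in BJEL, and 5.49 and 6.07 in BJELM. INA fell by 2.82 ± 0.19 in BJEL (adjusted p = 0.000866), and it dropped by 3.83 ± 0.19 in the arrays labelled BJELM against BJ (adjusted p = 0.000168). The change of INA between BJEL and BJELM, -1.01 ± 0.19 (adjusted p = 0.0263), lay at the fold minimum, and it passed in only 1 of the 6 fits that left out an array, the one without BJELM replicate 2 (values from -1.30 to -0.71 over the 6). NES and INA were the 2 of 6 type IV genes that fell in BJEL, beside 2.29% of all genes. SYNM, synemin, differed by -0.30 there (adjusted p = 0.127).

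The nuclear lamins, which line the inside of the nuclear envelope, went in different directions. LMNB1, a B-type lamin, had signals of 7.52 and 7.84 in BJ, 8.97 and 8.91 in BJEL, and 8.94 and 8.87 in BJELM. Against BJ, LMNB1 gained 1.26 ± 0.12 in BJEL (adjusted p = 0.00201). It was 1.23 ± 0.12 above BJ in the arrays labelled BJELM (adjusted p = 0.00109). LMNB2 differed by 0.64 in BJEL (adjusted p = 0.0062), under the fold minimum. LMNA, the gene of the A-type lamins, fell by 1.05 ± 0.19 in the arrays labelled BJELM against BJ (adjusted p = 0.0091), and was under the criteria when the first BJ array (-0.88, adjusted p = 0.055) or the second BJELM array (-0.84, adjusted p = 0.0333) was dropped.

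**Figure D4:**
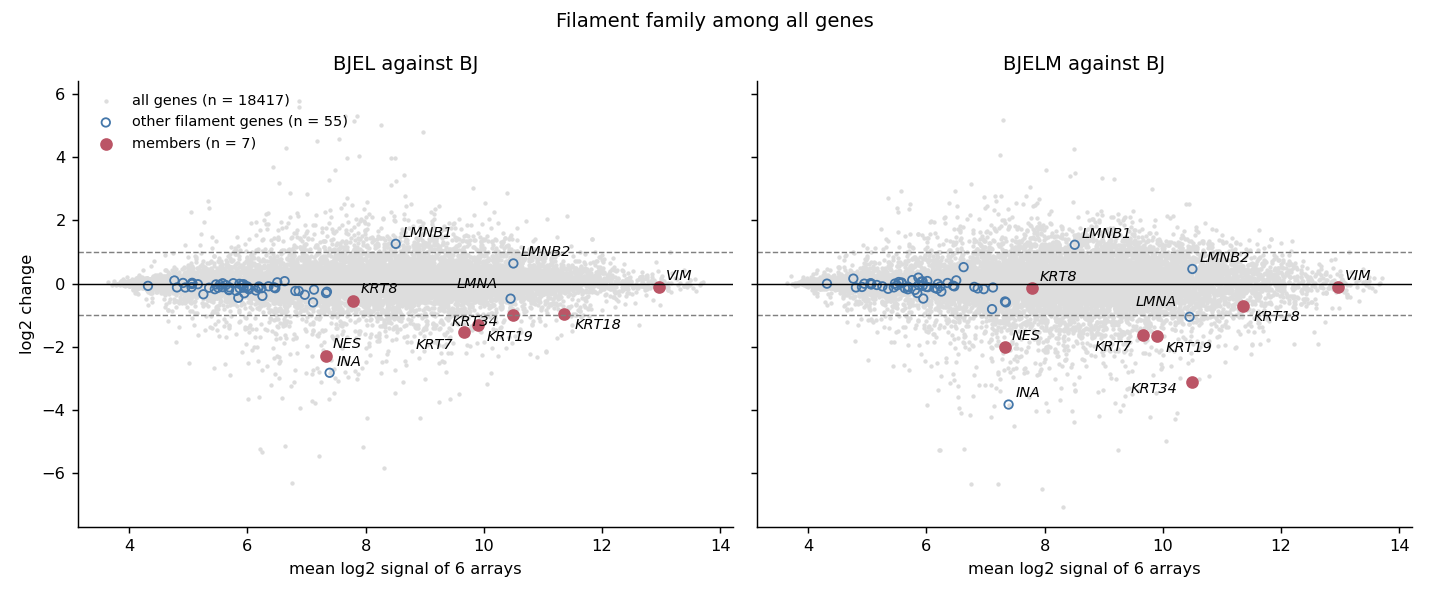
Log2 change (vertical axis) against mean log2 signal of the 6 arrays (horizontal axis) for 18417 genes (grey), the 55 other filament genes (blue circles) and the 7 members (red), in BJEL and in BJELM against BJ, with dashed lines at 2-fold. Most other filament genes sit at low signals near 0, apart from INA, at -2.82 and -3.83, and LMNB1, at 1.26 and 1.23.

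The keratin genes lie in 2 clusters, with type II genes on chromosome 12 and type I genes on chromosome 17, apart from KRT18, which neighbours KRT8 on chromosome 12. On chromosome 17 the RefSeq order is KRT33A, KRT33B, KRT34 and KRT31. The value of KRT34, -3.11 in the arrays labelled BJELM against BJ, lay further from 0 than those of its neighbours, a difference that was not tested. KRT33A, a hair keratin, had signals of 7.75 and 7.41 in BJ, 6.96 and 7.01 in BJEL and 6.77 and 6.78 in BJELM, and differed from BJ by -0.81 ± 0.13 in the arrays labelled BJELM (adjusted p = 0.00514). KRT33B differed by -0.59 (adjusted p = 0.0141) and KRT31 by -0.20 (adjusted p = 0.264). Over the 25 other measured genes of that cluster, the difference of the arrays labelled BJELM from BJ ran from -0.81 to 0.19. On chromosome 12 it ran from -0.25 to 0.52 over 18 other genes. The highest of these was KRT80, a keratin of many epithelia (0.52 ± 0.10, adjusted p = 0.0119), under the fold minimum. Of these 43 genes 42 had a mean under the gene median, unlike KRT34. None of them was called in any comparison by limma or the methods' test, while 4, 3 and 5 had an unadjusted p under 0.05 in BJEL, from BJEL to BJELM and over both steps.

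Genes that tie filaments to membranes were measured as a further list. Desmosome genes fell in 2 of 13 cases in BJEL and again in 2 of 13 against BJ in the arrays labelled BJELM, beside 2.29% and 4.7% of all genes that fell, with 10 of the 13 under the gene median. JUP, plakoglobin, which joins desmosomal cadherins to the filament linker, had signals of 8.66 and 8.63 in BJ, 7.07 and 6.78 in BJEL, and 6.91 and 6.64 in BJELM. It fell by 1.72 ± 0.14 in BJEL (adjusted p = 0.00128). PERP, a membrane protein of desmosomes and a p53 target, was at -1.51 ± 0.12 in BJEL (adjusted p = 0.00118) and fell by 2.18 ± 0.12 in the arrays labelled BJELM (adjusted p = 0.000206).

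Of 10 plakins and linkers, DSP was the 1 that was called, and that in the arrays labelled BJELM against BJ. This is 10%, beside 8.79% of all genes called. DSP, desmoplakin, which binds keratin filaments to desmosomes, had signals of 9.66 and 9.11 in BJ, 9.26 and 8.37 in BJEL, and 7.83 and 7.54 in BJELM. The change was -1.70 ± 0.32 (adjusted p = 0.0101), and it did not pass when the first BJ array was dropped (-1.42, adjusted p = 0.0598). DSP also passed between BJEL and BJELM in the fit with the replicate block (-1.13, adjusted p = 0.00172), against an adjusted p of 0.0806 without it. PLEC, plectin, which binds vimentin and keratins alike, differed from BJ by -0.63 ± 0.089 in BJEL (adjusted p = 0.0063) and -0.71 ± 0.089 in BJELM (adjusted p = 0.00243), under the fold minimum.

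Epithelial markers were mostly not called. Of 16 epithelial markers other than keratins none was called in BJEL by limma, with a median of -0.15, beside -0.017 over all genes, 1 had an adjusted p and 3 an unadjusted p under 0.05, and the methods' test called none. Their mean signal lay between 6.42 and 6.61 on all 6 arrays, and 13 of the 16 had a mean under the gene median. In the arrays labelled BJELM against BJ, CLDN1, a tight junction protein, rose by 2.21 ± 0.33 (adjusted p = 0.0042), and MUC1, a membrane mucin, was 2.29-fold lower (adjusted p = 0.0228). MUC1 missed the threshold when the first BJ array (adjusted p = 0.122), the second (adjusted p = 0.054) or the second BJELM array (adjusted p = 0.096) was removed. CLDN1 rose from BJEL to BJELM as well (1.53 ± 0.33, adjusted p = 0.0368), which held in 1 of the 6 fits that left out an array. It missed the threshold without any array of BJ or BJEL and without the first of BJELM (adjusted p from 0.0603 to 0.142).

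Among 14 epithelial transcription and splicing factors, of which 12 had a mean under the gene median, TFAP2C was the 1 that was called. That was in the arrays labelled BJELM against BJEL and against BJ, 7.14% each, beside 2.68% and 8.79% of all genes. TFAP2C, an AP-2 factor of surface ectoderm, had signals of 7.59 and 7.65 in BJ, 7.84 and 7.81 in BJEL, and 5.38 and 5.35 in BJELM. The fall between BJEL and BJELM was -2.46 ± 0.081 (adjusted p = 0.00024), in the comparison in which KRT34 fell as well. Of 9 mesenchymal transcription factors 2 fell in BJEL and 0 rose, beside 2.29% of all genes that fell. PRRX1, a mesenchymal homeobox factor, fell by 2.04 ± 0.11 (adjusted p = 0.000426), and its mean was 9.38 in BJEL and 10.36 in BJELM. SNAI1, a repressor of CDH1, fell by 1.21 ± 0.11 (adjusted p = 0.00156). ZEB1, a repressor of epithelial genes, differed by -0.79 in BJEL (adjusted p = 0.00749) and SNAI2 by -0.21 (adjusted p = 0.159). TWIST1 and ZEB2 went the other way, with means of 9.85 and 9.76 in BJ and 9.93 and 9.91 in BJEL.

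Fibroblast markers were lower in the derived lines, as were the keratins and nestin that fell. Of 15 such genes 10 fell in BJEL and 14 in the arrays labelled BJELM, each against BJ, beside 2.29% and 4.7% of all genes. The methods' test called 9 and 5 of them. Their mean signal was 10.91 to 11.20 in BJ, 8.96 to 9.11 in BJEL and 8.59 to 9.20 in BJELM. Their part in the results above was not tested. PDGFRA, a growth factor receptor, stood at -3.57 ± 0.098 (adjusted p = 7.81e-05) and FAP, a surface protease, at -3.45 ± 0.26 (adjusted p = 0.00106) in BJEL against BJ. Of 13 neural progenitor markers none was called by limma or the methods' test, none had an adjusted p under 0.05 in any comparison (3, 0 and 0 had an unadjusted one), and their mean signal was 5.92 to 6.05 on all arrays. Endothelial markers (9 measured) had a mean signal of 5.34 to 5.52, leukocyte markers (8 measured) of 5.95 to 6.17, and melanocyte markers (5 measured) of 5.41 to 5.78. Among these 22 genes CD68, a lysosomal protein that fibroblasts also make, and MITF were called in the arrays labelled BJELM against BJ. Their changes were -1.04 and -1.68, and 8.79% of all genes were called there. CD68 was under 2-fold without the second BJ array (-0.96). Smooth muscle markers, which fibroblasts share in part, had a mean signal of 9.27 to 10.05 in BJ and 8.40 to 9.07 in the derived lines. In BJEL, 2 of 7 of them fell (ACTA2 and LMOD1) and 1 rose (ACTG2), beside 5.18% of all genes called. ACTA2 and ACTG2 lost their call without 1 of the BJ arrays or either BJEL array. With 1 array left out, ACTA2 ran from -3.58 to -2.11 and ACTG2 from 1.21 to 2.50.

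**Figure D5:**
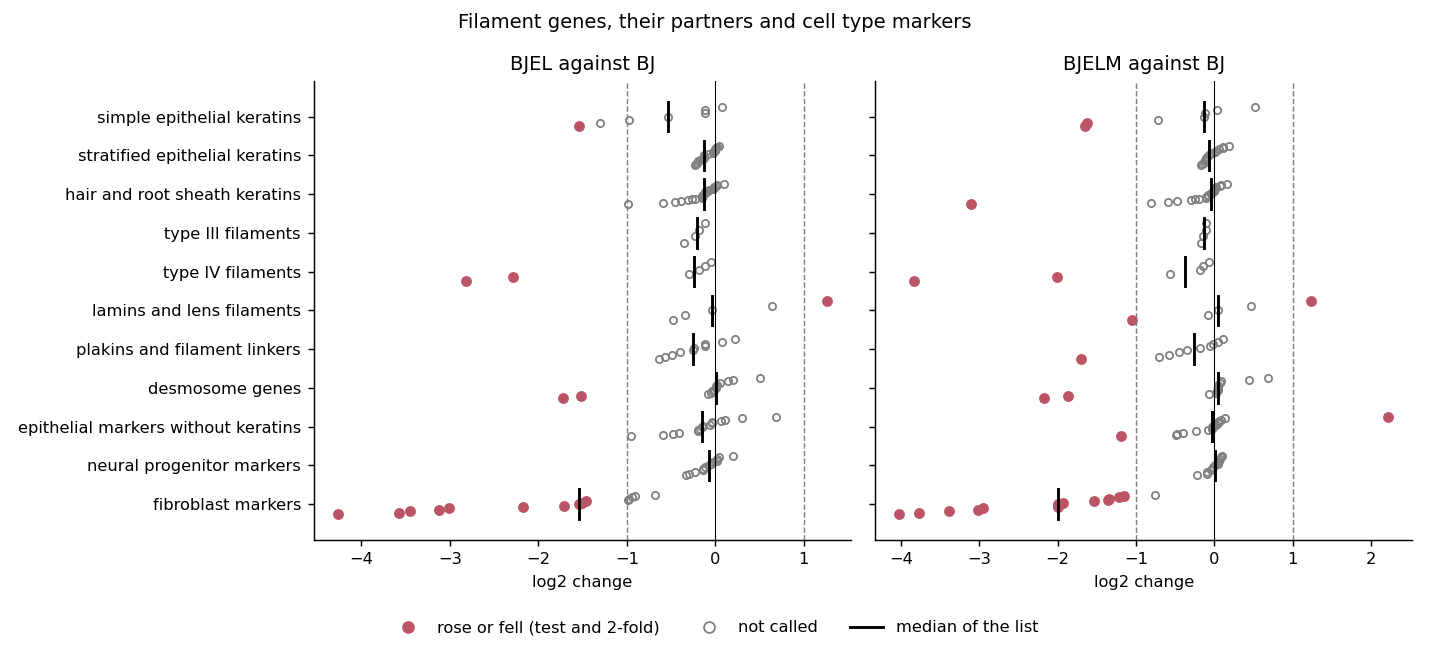
Log2 change (horizontal axis) of each measured gene of 11 lists (vertical axis) in BJEL and in BJELM against BJ, with red points for genes that passed the test and the 2-fold minimum, open points for the others and black bars for list medians. Fibroblast markers have medians of -1.54 and -1.99, while the medians of epithelial and neural progenitor markers lie near 0. Of the latter lists 13 of 16 and 11 of 13 genes had a mean under the gene median, against 2 of 15 fibroblast markers.

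The genes whose pattern was most like that of a member were found by Pearson correlation over the 6 arrays, among 1613 genes whose mean reached the gene median and whose line means span at least 1. For KRT7 they were CKB, the brain-type creatine kinase (r = 0.9987), JUP (r = 0.9980) and EHD3, an endocytic protein (r = 0.9980). For KRT19 they were CD151, a tetraspanin that binds laminin-binding integrins (r = 0.9969), the transcription factor CEBPD (r = 0.9949) and the surface glycoprotein TPBG (r = 0.9947). KRT34 was nearest to CSRP1, a LIM domain protein (r = 0.9974), the phosphodiesterase PDE1C (r = 0.9955) and LHFPL6 (r = 0.9949). NES was nearest to the taurine transporter SLC6A6 (r = 0.9984), LTBP1, which binds latent TGF-beta (r = 0.9975), and GALNT10, which starts O-linked glycans (r = 0.9960). With 6 arrays in 3 lines such values are high for many genes, and they describe likeness alone.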

How the data were processed

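RNA of the 3 lines was hybridised to Affymetrix Gene 1.0 ST arrays. The authors deposited log2 signals made by RMA, with version 1.3.1 of Expression Console named in the submitters' notes, which sets the arrays to a common scale. Arrays have no count depth, and their number limits the precision. Of 33297 probe sets, 19460 have 1 gene symbol, 1754 several, and 12083 are not listed in the platform table. Each gene took its single-symbol probe set with the highest mean, giving 18417 genes, of which 18389 matched RefSeq by Entrez ID. KRT17, KRT6A and KRT81 are not analysed here.

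One limma 3.58.1 fit in R 4.3.3 held all 6 arrays with a mean per cell line (3 residual and 3.13 prior degrees of freedom), with two-sided moderated tests and Benjamini-Hochberg adjustment over all genes. A call needs an adjusted p under 0.05 and a 2-fold change, and changes are given ± SE. The fit was tested on simulated data. The members and lists were chosen with earlier results of these data known. Genes were named by rule: all members, up to 4 called genes per list and comparison or else the 2 brightest, and the 3 most alike per member. INA, TFAP2C and the lamins come from these lists. PLEC, ZEB1, ZEB2, TWIST1, SYNM, KRT80, KRT33A and KRT31 were chosen after their values were seen.

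Same-numbered arrays deviated together from their line means (r = 0.45, 0.48 and 0.55 between lines over 18417 genes), so the replicate number was taken to pair the arrays, on the data alone. Alternatives were a replicate block, each array left out, other normalizations, filters, priors and thresholds, and the methods' t-test in plain form. Other data types of the study were not analysed here. The contrast between steps and the differences between keratin pairs were chosen after values were seen.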

Additional observations from a re-analysis of the deposited data

How the results depend on the processing

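With 2 arrays per line the p-values measure the spread between these arrays. The falls of KRT7 and NES against BJ in both derived lines, and of KRT34 in the arrays labelled BJELM against BJ, kept direction under every alternative run. They kept their call too, except that the methods' t-test at unadjusted p lost NES in BJEL (p of 0.0501) and in BJELM (p of 0.0592) and KRT34 (p of 0.0966). Over the 7 genes, 327 of 360 recomputed values kept direction and call, 14 lost a call, 11 gained one and 8 turned sign. KRT34 between BJEL and BJELM was also lost with only those lines fitted (adjusted p = 0.0667) and with every probe set tested (adjusted p = 0.102).

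Calls are given in the order BJEL against BJ, BJELM against BJEL and BJELM against BJ. The methods' t-test called 465, 231 and 880 of all genes, against 954, 494 and 1619 by limma, with 1, 0 and 1 of the 7 genes and 2, 0 and 2 of the filament genes, and 0, 0 and 0 of all genes after Benjamini-Hochberg adjustment. Without a fold minimum 3228, 1992 and 5195 genes passed, with 8 filament genes in the first comparison and 13 in the last. At 1.5-fold 2110, 1345 and 3562 genes passed, with 7 filament genes in the first. Between BJEL and BJELM, 0 of the 7 genes and 0 filament genes passed with only those lines or with every probe set, and 1 filament gene with median centring. With the replicate block 993, 544 and 1644 genes were called, with 3, 1 and 4 of the 7, and apart from KRT19 in BJEL it changed no call of the 7 genes. Among the other genes named it added DSP, PDE1C and ACTG2 between BJEL and BJELM and ACTA2 in BJELM against BJ.

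Leaving out 1 array gave 2 to 3, 0 to 1 and 3 to 4 called of the 7 genes, and 4 to 5, 0 to 1 and 5 to 7 filament genes. Signs turned for uncalled differences. From BJEL to BJELM, KRT7 ran from -0.22 to 0.072 (0.019 without the first BJEL array), KRT19 from -0.77 to 0.083, and VIM from -0.054 to 0.064 (-0.023 without the second BJEL array, and -0.00027 after quantile normalization). KRT8 in BJELM against BJ ran from -0.38 to 0.10 (0.085 without the second BJELM array). The cause was not tested.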
